A study of Mus musculus with 2 samples.

Results

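The cells described here are the 4T1 tumour cells highest in 7 genes typical of a type I interferon response. They are 344 interferon-high cells among 11491 tumour cells, in data of 28971 cell barcodes. A barcode counted as a tumour cell with at least 3000 unique molecular identifiers (UMIs, each standing for a captured RNA molecule), at most 20% mitochondrial UMIs, at least 5 UMIs and 10 per 10000 of the epithelial keratin genes Krt8 and Krt18, no UMI of the leukocyte gene Ptprc, and low collagen (Col1a1 and Col3a1 under 20 per 10000) and S100a8 and S100a9 (under 50 per 10000). The tumour cells of both libraries were pooled and ranked by the summed UMIs per 10000 of 7 genes, Ifit1, Ifit3, Ifit3b, Rsad2, Cmpk2, Ifi44 and Usp18. The highest 3% were taken, which gave 40 AptCD4-LNT cells and 304 Untreated cells and left 3340 and 7807 other tumour cells, in that order. The levels of those 7 genes chose the cells, so they describe the choice and support nothing beyond it.

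4T1 is a mouse mammary carcinoma line, used as a model of triple negative breast cancer, and all mice carried 4T1 tumours on the BALB/c background. The AptCD4-LNT mice received AptCD4-LNT at intervals of 3 days, in doses of 5000000, then 4000000, then 3000000 cells. The Untreated mice received PBS, and tumours of both groups were taken at 9 days. In each group 3 tumours were mixed into a single 10x Genomics library, so the tumours cannot be told apart, there are no replicates, and no difference between the libraries could be tested. All intervals below are 95% intervals that cover counting error only.

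Type I interferons bind a receptor of the IFNAR1 and IFNAR2 chains, whose kinases JAK1 and TYK2 switch on a transcription factor complex that includes STAT2 and IRF9 and binds interferon-stimulated response elements of antiviral genes. Interferon gamma signals through its own receptor and is the stronger inducer of MHC class II and of the GTPases that attack intracellular pathogens; many genes answer to both.

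The upstream sequences of 5 strongly interferon-inducible genes are printed because letters of the interferon-stimulated response element type can be read in them. Each is the 250 bases before the RefSeq transcription start, from the RefSeq table of build GRCm38.p6, read 5′ to 3′ on the strand of the gene, and capitals mark the searched motif, GAAA followed after any 2 bases by GAAA, or its reverse complement (TTTC, any 2 bases, TTTC), so that both strands were searched. The windows are chr19:34640639-34640888 on the plus strand for Ifit1, chr19:34583279-34583528 on the plus strand for Ifit3, chr19:34607707-34607956 on the plus strand for Ifit3b, chr12:26456453-26456702 on the minus strand for Rsad2 and chr4:156200819-156201068 on the minus strand for Isg15.
Ifit1: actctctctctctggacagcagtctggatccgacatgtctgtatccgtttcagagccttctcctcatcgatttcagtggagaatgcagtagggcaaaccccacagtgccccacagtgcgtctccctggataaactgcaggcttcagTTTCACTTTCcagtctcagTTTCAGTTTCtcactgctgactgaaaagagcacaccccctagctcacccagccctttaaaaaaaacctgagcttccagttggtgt
Ifit3: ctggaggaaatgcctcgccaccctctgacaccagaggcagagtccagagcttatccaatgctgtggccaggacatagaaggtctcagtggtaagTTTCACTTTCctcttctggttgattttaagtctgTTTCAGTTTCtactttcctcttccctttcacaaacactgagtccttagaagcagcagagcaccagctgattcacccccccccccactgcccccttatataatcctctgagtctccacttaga
Ifit3b: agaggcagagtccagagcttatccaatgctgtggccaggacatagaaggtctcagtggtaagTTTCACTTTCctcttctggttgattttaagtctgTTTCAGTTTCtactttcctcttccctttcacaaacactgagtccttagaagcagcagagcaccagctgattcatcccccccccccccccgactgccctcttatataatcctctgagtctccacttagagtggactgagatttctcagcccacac
Rsad2: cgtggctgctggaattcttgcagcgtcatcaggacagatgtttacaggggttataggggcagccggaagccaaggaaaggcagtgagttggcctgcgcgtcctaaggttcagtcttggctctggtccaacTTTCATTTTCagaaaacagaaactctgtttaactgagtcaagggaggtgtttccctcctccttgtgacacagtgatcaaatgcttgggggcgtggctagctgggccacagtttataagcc
Isg15: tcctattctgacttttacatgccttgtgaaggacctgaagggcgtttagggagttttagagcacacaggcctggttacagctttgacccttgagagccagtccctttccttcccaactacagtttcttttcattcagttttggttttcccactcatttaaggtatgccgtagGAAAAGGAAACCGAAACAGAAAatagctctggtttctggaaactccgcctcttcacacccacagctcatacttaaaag
Ifit1 had matches beginning 104 and 85 bases before the start, Ifit3 156 and 122, Ifit3b 188 and 154, and Rsad2 a match at 120. In Isg15 3 overlapping matches began 78, 72 and 66 bases before the start. Cmpk2 and Ifi44 had no match in their windows, and Usp18 was not matched in the table, so 4 of the 6 choosing genes found there carried the motif, against 936 of all 27025 genes (3.46%). Among the lists described below, a match was found for 18 of 65 type I antiviral genes (27.7%), 9 of 10 interferon-gamma-induced GTPases, 3 of 16 MHC class I genes and 0 of 5 MHC class II genes. The windows of Irf7, Oasl1, Oasl2 and Ifit2, genes named below, also had no match. A match is a description of the letters and not evidence of a bound site. The Ifit3 and Ifit3b windows were identical at 216 of 218 aligned bases (99.1%), and reads of these near-identical neighbours could have been assigned to either gene or to neither.

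The Untreated library held more barcodes and the AptCD4-LNT library more UMIs per cell. There were 8931 and 20040 barcodes for AptCD4-LNT and Untreated, with 98968100 and 131295224 UMIs, and 42 barcode sequences occurred in both libraries, 1 of them carried by an interferon-high cell. Tumour cells made up 37.8% and 40.5% of the barcodes, with a median of 17700.5 UMIs per tumour cell in AptCD4-LNT and 8138 in Untreated. Within a library, interferon-high and other tumour cells were of similar depth, with medians of 16284 against 17702.5 UMIs in AptCD4-LNT and 7465.5 against 8174 in Untreated. Their median mitochondrial shares were 2.27% against 2.30% and 2.24% against 2.23%.

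The choosing genes cannot check the label, since they set it, and their values are given as a description. The cutoff fell at 7.22 UMIs per 10000, the lowest scores inside being 7.215, 7.237 and 7.240 and the highest outside 7.206, 7.202 and 7.199, so the cells near it form a continuous range and not a separate type. The score was 0 in 50.2% of the AptCD4-LNT tumour cells and 47.0% of the Untreated ones, and reached 118 and 97.2 in the highest cells. Most interferon-high cells expressed several of the 7 genes. A median of 6 was seen per cell in AptCD4-LNT and 4 in Untreated; 33 of 40 cells (82.5%) and 178 of 304 (58.6%) had UMIs of at least 4 of them, against 0.719% and 1.18% of the other tumour cells. These counts depend on depth, since the interferon-high cells had a median of 25 UMIs of the 7 genes in AptCD4-LNT and 10 in Untreated. They are therefore not directly comparable between the libraries. Ifi44 alone carried 1 and 14 cells past the cutoff. The epithelial adhesion gene Epcam stood at 811 CPM (UMIs of a gene per 1000000 UMIs, both summed over the cells of a group) in the interferon-high cells and 782 in the others of AptCD4-LNT, and at 864 and 1073 in Untreated.

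**Figure D1:**
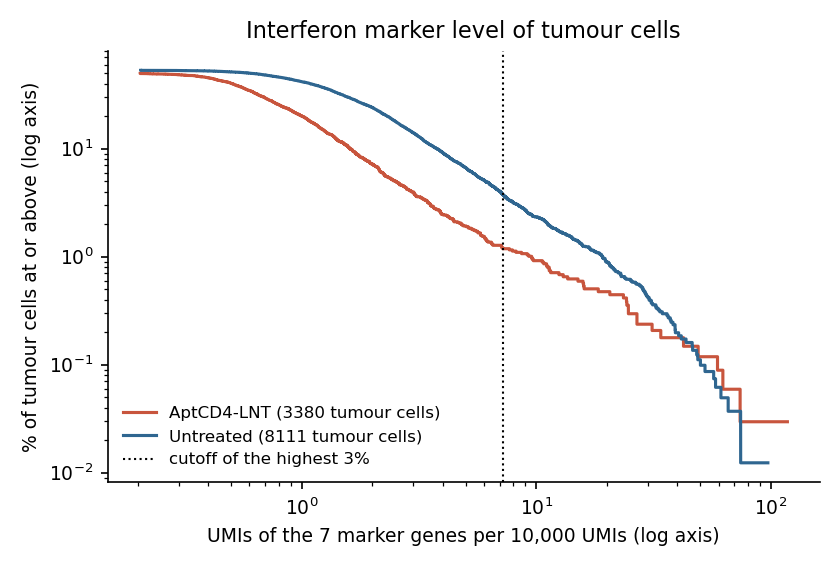
Percent of tumour cells (vertical, log axis) whose summed level of the 7 choosing genes, in UMIs per 10000, is at or above the value on the horizontal log axis, for AptCD4-LNT (red) and Untreated (blue); the dotted line is the cutoff of 7.22. Cells with a score of 0 lie off the log axis, neither curve has a step at the cutoff, and the Untreated curve lies above the AptCD4-LNT curve there, at 3.75% against 1.18%.

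Interferon-high cells were a smaller share of the tumour cells in the AptCD4-LNT library. They were 1.18% of AptCD4-LNT tumour cells (40 of 3380, interval 0.847 to 1.61%) and 3.75% of Untreated tumour cells (304 of 8111, 3.35 to 4.18%), a ratio of 3.17 (2.27 to 4.52). The libraries differ in depth, so every tumour cell was also thinned to 3000 UMIs. After thinning, at least 1 UMI of the 7 genes was found in 14.97% of the AptCD4-LNT tumour cells and in 28.01% of the Untreated ones. At least 2 were found in 3.46% and 9.06%, at least 3 in 1.45% and 3.78%, at least 4 in 1.12% and 2.19%, and at least 10 in 0.266% (9 cells) and 0.456% (37 cells), with intervals that overlap for the last. Aiming for the highest 3% by the thinned score, with ties at the cutoff left out, kept only 216 cells. These are the 38 AptCD4-LNT and 178 Untreated cells with at least 4 UMIs. Their ratio of 1.95 (1.37 to 2.85) thus restates the shares at 4 UMIs and belongs to a stricter cutoff than 3%. In both libraries the interferon-high cells held about the same portion of the tumour-cell UMIs of the 7 genes, 31.4% and 33.0%.

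The choosing genes are described first. In CPM, Ifit1, an RNA-binding protein that blocks translation of foreign RNA, stood at 453 in the interferon-high and 4.13 in the other tumour cells of AptCD4-LNT, and at 270 and 8.70 in Untreated. Rsad2 (viperin, which makes a chain-terminating nucleotide) stood at 463 and 1.24 in AptCD4-LNT and at 160 and 2.79 in Untreated. Usp18, the protease that removes ISG15 and dampens receptor signalling, stood at 158 and 13.1 in AptCD4-LNT and at 143 and 21.4 in Untreated. Usp18 and Ifi44 were the least restricted to these cells: the interferon-high cells held 11.8% and 18.6% of the tumour-cell UMIs of Usp18 in AptCD4-LNT and Untreated and 17.5% and 22.1% of those of Ifi44, against 80.5% and 66.2% for Rsad2.

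When cells were chosen by Ifit1, Ifit3 and Ifit3b alone, the 4 genes that had not been used were still concentrated in the chosen cells. That choice took 39 and 305 cells, 238 of them among the 344. Rsad2 then stood at 406 against 1.94 CPM in AptCD4-LNT, 209-fold higher (169 to 260), and at 153 against 3.31 in Untreated, 46.3-fold (39.5 to 54.3). Cmpk2, a mitochondrial nucleotide kinase, was 105-fold and 23.03-fold higher, Ifi44 15.9-fold and 5.66-fold, and Usp18 12.2-fold and 5.52-fold.

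Genes outside the choice were compared between interferon-high and other tumour cells for the 8270 genes at 10 CPM or more over all tumour cells, calling a gene higher or lower at a 2-fold difference in level. Of these, 137 (1.66%) were higher and 117 (1.41%) lower in the interferon-high cells of AptCD4-LNT, and 58 (0.701%) were higher and 22 (0.266%) lower in Untreated. In both libraries 56 (0.677%) were higher and 5 (0.0605%) lower, and the median log2 ratio over all 8270 genes was 0.01 in AptCD4-LNT and -0.01 in Untreated. These shares are given as the background of the counts that follow. Without replicates they are counts of genes past a fold and not of genes that passed a test, and the 40 AptCD4-LNT cells hold 714801 UMIs against 2705471 in the 304 Untreated cells, so that library's ratios carry the larger counting error.

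The type I antiviral genes were higher in the interferon-high cells of both libraries. Of 86 genes listed, the choosing genes not among them, 61 were at 10 CPM or more. Of these, 45 were 2-fold higher in AptCD4-LNT, 33 in Untreated and 32 in both, none was 2-fold lower in either, and the median log2 ratio was 1.74 and 1.07. The other 25 were below that level, among them Mx1, Mx2, Oasl1, Oas1a and Ifit2. Whether a gene reached the level depends in part on the interferon-high cells themselves.

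Among the sensors of foreign nucleic acid 8 of 12 were 2-fold higher in both libraries. Ifih1 (MDA5, a sensor of long double-stranded RNA) stood at 136 and 17.5 CPM in the interferon-high and other cells of AptCD4-LNT, and at 66.5 and 18.2 in Untreated. Dhx58 (LGP2, its cofactor) stood at 58.8 and 6.69, and at 62.5 and 11.97. Ddx58 (RIG-I) stood at 116 and 22.1 CPM in AptCD4-LNT and at 74.3 and 20.1 in Untreated. The RNA sensors were thus higher in the chosen cells of both libraries, as were Zbp1, a sensor of Z-form nucleic acid, at 3.87-fold and 2.36-fold, and Tlr3, the endosomal receptor of double-stranded RNA, at 4.39-fold and 2.27-fold. The DNA-sensing pair Cgas and Sting1 was not 2-fold different: Cgas stood at 12.6 and 10.6 CPM in AptCD4-LNT and at 8.50 and 10.8 in Untreated, and Sting1 at 35.0 and 29.2, and at 26.2 and 27.4.

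The effectors that act on RNA followed, 5 of 11 being 2-fold higher in both libraries and 9 in AptCD4-LNT. Oasl2, a relative of the 2-5A synthetases, stood at 334 against 40.5 CPM in AptCD4-LNT and at 347 against 69.0 in Untreated, 8.26-fold (7.202 to 9.43) and 5.03-fold (4.69 to 5.39). Eif2ak2, the kinase PKR that halts translation, was 4.21-fold and 2.82-fold higher, and Ddx60, a helicase that aids RNA sensing, 6.56-fold and 4.47-fold. Samhd1, which depletes nucleotides, was 2.26-fold higher in AptCD4-LNT and 1.59-fold in Untreated.

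Isg15, a ubiquitin-like protein that is both secreted and attached to other proteins, had the highest ratio of the measured list genes in both libraries, the choosing genes aside. It gave 505 UMIs in 38 of the 40 AptCD4-LNT cells and 1564 UMIs in 267 of the 304 Untreated cells. Its level was 706 against 40.8 CPM in AptCD4-LNT, 17.3-fold higher (15.7 to 19.0), and 578 against 67.2 in Untreated, 8.60-fold (8.12 to 9.10). The larger ratio of AptCD4-LNT went with a lower level in its other tumour cells and, at this common cutoff, a higher level in its interferon-high cells. At 3000 UMIs per cell, 75% of the interferon-high and 10.6% of the other AptCD4-LNT tumour cells had a UMI of Isg15, and 68.4% and 16.2% of the Untreated ones (unthinned 95% and 39.4%, and 87.8% and 35.6%). Genes that conjugate it were also higher: Herc6, the mouse ligase, 5.62-fold and 3.17-fold, and Ube2l6, its conjugating enzyme, 4.16-fold and 1.99-fold.

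Mx1 and Mx2, dynamin-like GTPases, were rare even in the interferon-high cells and far rarer in the other tumour cells. Mx1 stood at 57.4 against 0.279 CPM in AptCD4-LNT (41 UMIs in 13 cells) and at 25.5 against 0.682 in Untreated (69 UMIs in 44 cells), and Mx2 at 56.0 against 0.854 and 25.9 against 1.30. Ifit2, another Ifit family member, stood at 79.7 against 5.45 CPM and at 80.6 against 7.28, 14.6-fold (10.9 to 19.4) and 11.1-fold (9.42 to 12.95). Membrane factors that tumour cells make in quantity differed less. Only Tor3a of the 11 measured membrane and GTPase factors was 2-fold higher in both libraries. Bst2 (tetherin, which holds budding virions at the surface) stood at 1318 against 483 CPM in AptCD4-LNT and at 1935 against 993 in Untreated, 2.73-fold and 1.95-fold. Ifitm3, which blocks fusion in endosomes, was 1.85-fold and 1.37-fold higher.

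The poly-ADP-ribosyl transferases and their partner ligase were higher as a group, 5 of 6 being 2-fold higher in both libraries and all 6 in AptCD4-LNT. Parp14 stood at 305 against 56.1 CPM in AptCD4-LNT and at 234 against 86.7 in Untreated. Among 19 other type I genes 12 were 2-fold higher in both, such as Rtp4, a chaperone of surface receptors, at 5.93-fold and 3.25-fold, and Xaf1, a pro-apoptotic factor, at 5.16-fold and 3.04-fold.

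**Figure D2:**
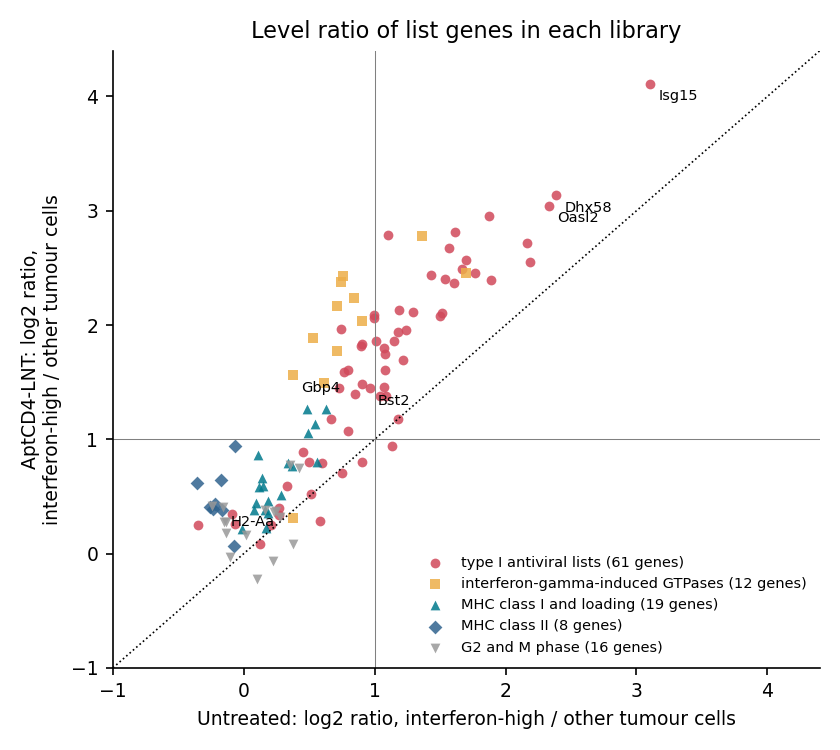
Log2 ratio of the level in interferon-high cells to that in other tumour cells, Untreated on the horizontal and AptCD4-LNT on the vertical axis, one point per gene at 10 CPM or more and a symbol per gene list; thin lines mark 2-fold and the dotted line equal ratios. Isg15 lies farthest out, at 3.10 and 4.11; the type I antiviral genes lie mostly past 2-fold on the vertical axis, and the MHC class II genes lie left of 0 in Untreated and above 0 in AptCD4-LNT.

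The interferon machinery itself was divided between genes that were higher and genes at the same level. None of 8 measured receptor and kinase genes was 2-fold different in either library: Ifnar1 stood at 50.4 against 44.6 CPM in AptCD4-LNT and 40.7 against 37.0 in Untreated, and Jak1 at 122 against 107 and 108 against 93.2. Of 10 transcription factors Irf7 and Stat2 were 2-fold higher in both libraries. Irf7, which drives the amplification of the response, stood at 93.7 against 9.59 CPM and at 97.9 against 18.7, 9.77-fold (7.48 to 12.6) and 5.24-fold (4.58 to 5.98). Stat2 stood at 143 against 28.6 and at 149 against 51.3. Irf1, a target of interferon gamma and NF-kB, was 1.09-fold (0.949 to 1.25) and 1.18-fold (1.10 to 1.27) higher. Of the 10 measured feedback genes, 2 were 2-fold higher in both libraries: Isg15 and Trim30a, a negative regulator of innate signalling, at 7.42-fold and 4.71-fold. Socs1, the inhibitor of JAK kinases, was 1.67-fold and 1.89-fold higher.

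Interferon transcripts were nearly absent from the chosen cells and from the other tumour cells alike. All 14 interferon genes listed gave 0 and 2 UMIs in the interferon-high cells of AptCD4-LNT and Untreated. In the other tumour cells they gave 10 and 20 UMIs (0.155 and 0.252 CPM), so their near absence does not set the chosen cells apart. The 11 interferon alpha, beta, lambda and zeta genes listed gave 0 UMIs in the interferon-high cells of both libraries, which allows up to 4.20 CPM in AptCD4-LNT and 1.11 CPM in Untreated for 3 UMIs. Over all barcodes Ifnb1 gave 11 UMIs in 2 cells of AptCD4-LNT and 28 UMIs in 7 cells of Untreated, 18 of the latter in barcodes with macrophage markers. Ifng gave 31 UMIs in 14 cells and 223 UMIs in 105 cells, none of them interferon-high. The epithelial interferon gene Ifne gave 2 UMIs in the Untreated interferon-high cells.

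Genes more typical of interferon gamma separated the libraries. Of 12 measured GTPases of the Gbp and Irg families 11 were 2-fold higher in AptCD4-LNT and 2, Gbp3 and Gbp5, in both libraries. Their median log2 ratio was 2.10 in AptCD4-LNT and 0.73 in Untreated, against 1.74 and 1.07 for the type I antiviral genes. Which interferon the cells had answered was not tested. Igtp (IRGM3, a regulator of Irg proteins on lipid membranes) stood at 236 against 43.9 CPM in AptCD4-LNT, 5.38-fold (4.58 to 6.29), and at 252 against 149 in Untreated, 1.70-fold (1.57 to 1.83). Iigp1 stood at 341 against 76.1 and at 299 against 183. For Igtp and Iigp1 the levels in the interferon-high cells of the libraries were near each other. Gbp4 stood at 123 CPM in the interferon-high cells of AptCD4-LNT and 225 in those of Untreated, against 41.8 and 173 in the other tumour cells.

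Antigen presentation genes differed less than the GTPases. Of 19 MHC class I and peptide-loading genes 18 lay above the other tumour cells in both libraries. In AptCD4-LNT 4 of the 19 were 2-fold higher, against 1.66% of all 8270 genes. These were Nlrc5, the transactivator of class I genes, and the loading genes Tap1, Tap2 and Tapbpl. In Untreated 0 were, and the medians were 0.59 in AptCD4-LNT and 0.18 in Untreated. H2-K1, a classical class I heavy chain, stood at 3927 against 3022 CPM and at 4440 against 4215, 1.30-fold (1.25 to 1.35) and 1.05-fold (1.03 to 1.07). None of 8 MHC class II genes was 2-fold different, and the direction was opposite: the median was 0.42 in AptCD4-LNT and -0.20 in Untreated. H2-Aa stood at 353 against 270 CPM in AptCD4-LNT and at 658 against 739 in Untreated.

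Of 12 measured chemokines 2 were 2-fold higher in both libraries, Cxcl10 and Cxcl11, both ligands of CXCR3 on activated T cells. Cxcl10 stood at 625 against 83.6 CPM in AptCD4-LNT, 7.48-fold (6.77 to 8.23), and at 393 against 111 in Untreated, 3.55-fold (3.33 to 3.79). It came from few cells: 22 of 40 and 120 of 304 interferon-high cells had a UMI of it, 1 cell held 127 of the 447 UMIs of AptCD4-LNT, and without that cell the level was 465 CPM. Cxcl11 was 4.94-fold and 3.57-fold higher. Cxcl9, the third CXCR3 ligand and the most dependent on interferon gamma, stood at 37.8 against 25.2 CPM in AptCD4-LNT and at 231 against 127 in Untreated. Ccl5 stood at 150 against 9.79 CPM in AptCD4-LNT, where 88 of 107 UMIs came from a single cell, and without it at 27.6. The neutrophil attractant Cxcl2 was lower in AptCD4-LNT, at 37.8 against 112 CPM, and stood at 106 against 116 in Untreated. Cxcl3 was also past 2-fold lower in AptCD4-LNT, but from 2 UMIs, with an interval of the ratio from 0.0455 to 1.37.

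Genes of cell death and immune checkpoints were higher in single cases. Daxx, a nuclear cofactor of death signalling, was the 1 of 13 measured death genes that was 2-fold higher in both libraries, at 3.35-fold and 2.11-fold. Tnfsf10 (TRAIL, the death ligand), below 10 CPM over all tumour cells, stood at 30.8 against 5.03 CPM and at 30.3 against 11.8. Cd274 (PD-L1) stood at 28.0 against 6.95 CPM in AptCD4-LNT, from 20 UMIs, 4.02-fold (2.43 to 6.29), and at 44.7 against 22.3 in Untreated, 2.01-fold (1.66 to 2.42). Lgals9, the checkpoint ligand galectin-9, was 3.62-fold and 2.21-fold higher.

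S phase genes lay below the other tumour cells for the most part. None of 14 measured genes was above the other tumour cells in both libraries, and the medians were -0.30 in AptCD4-LNT and -0.57 in Untreated. Ung, which removes uracil from DNA, was the 1 gene 2-fold lower in both, at 5.596 against 18.1 CPM (4 UMIs) and 10.7 against 23.4. Mcm5, part of the replicative helicase, stood at 32.2 against 42.3 CPM and at 20.3 against 42.2, 0.760-fold (0.481 to 1.14) and 0.482-fold (0.362 to 0.629). For G2 and M phase the medians were 0.30 and 0.13, with 0 of 16 genes 2-fold different.

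Most genes of other tumour programs were within 2-fold of the rest of the tumour cells. For hypoxia and glycolysis (16 genes), luminal keratins and junctions (11), immediate early genes (14), the unfolded protein response (10) and p53 targets (8), no gene was 2-fold different in either library, and the medians lay between -0.21 and 0.30. All 16 hypoxia and glycolysis genes lay above the other tumour cells in Untreated, and 11 of the 16 did so in both libraries. Their medians were 0.19 in AptCD4-LNT and 0.30 in Untreated. Of 6 measured basal keratin and related genes 1, Lgals7, was 2-fold lower in Untreated, at 6.65 against 21.2 CPM, and stood at 57.4 against 80.8 in AptCD4-LNT. No heat shock gene was 2-fold higher in either library, and Hspa1b, an inducible chaperone, stood at 35.0 against 124 CPM in AptCD4-LNT and 75.03 against 79.4 in Untreated. Of 13 measured NF-kB targets none was 2-fold higher in either library, and Il1b and Csf2 were 2-fold lower in AptCD4-LNT.

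Outside the lists, 16 further genes were 2-fold higher in both libraries with intervals above 1, and the 12 with the largest smaller ratio were Apol9a, Enpp4, Gm12250, Ifi202b, Ifi211, Il15, Misp, Mitd1, Nos2, Rnf213, Slfn2 and Trafd1. Several are known interferon-induced genes. Il15, a cytokine that sustains NK and memory T cells, stood at 35.0 against 12.5 CPM in AptCD4-LNT and at 37.3 against 12.9 in Untreated, 2.80-fold (1.80 to 4.16) and 2.89-fold (2.33 to 3.54). Rnf213, a large antimicrobial ubiquitin ligase, was 4.11-fold and 2.92-fold higher, Trafd1, a feedback regulator of innate signalling, 3.79-fold and 2.98-fold, and Nos2, the inducible nitric oxide synthase, 2.26-fold and 2.52-fold. Il15 and Nos2 had near-equal ratios in the 2 libraries, unlike most list genes. By the same rule 3 genes were lower in both: Ibsp, the matrix protein bone sialoprotein, at 30.8 against 71.5 CPM and 62.5 against 147, the histone-binding gene Hirip3 and the protease-inhibitor-like gene Ctla2a.

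Levels were then followed along the score, since the cutoff lies in a continuous range. Isg15 increased from 24.8 CPM in AptCD4-LNT cells with a score of 0 to 1326 in the 8 cells above 30, and from 40.3 to 1130 in Untreated (34 cells above 30). Cxcl10 was concentrated in the highest tier: in Untreated it stood at 214 CPM from the cutoff to 15, 372 from 15 to 30 and 1705 above 30, and in AptCD4-LNT at 256, 416 and 1881. Single cells weighed on the AptCD4-LNT values: without the cell with most Cxcl10 UMIs in each tier they were 70.1, 239 and 1192. For Igtp the libraries started from unlike levels. In AptCD4-LNT, Igtp increased from 20.5 CPM at a score of 0 to 152 in the tier from 2 to the cutoff. It then stood at 203 from the cutoff to 15, 199 from 15 to 30 and 382 above 30. In Untreated, Igtp was already at 108 at a score of 0. It stood there at 262 from the cutoff to 15, 211 from 15 to 30 and 278 above 30. H2-Aa was highest below the cutoff in both libraries, at 517 CPM in AptCD4-LNT and 813 in Untreated, and stood at 317 and 487 above a score of 30.

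**Figure D3:**
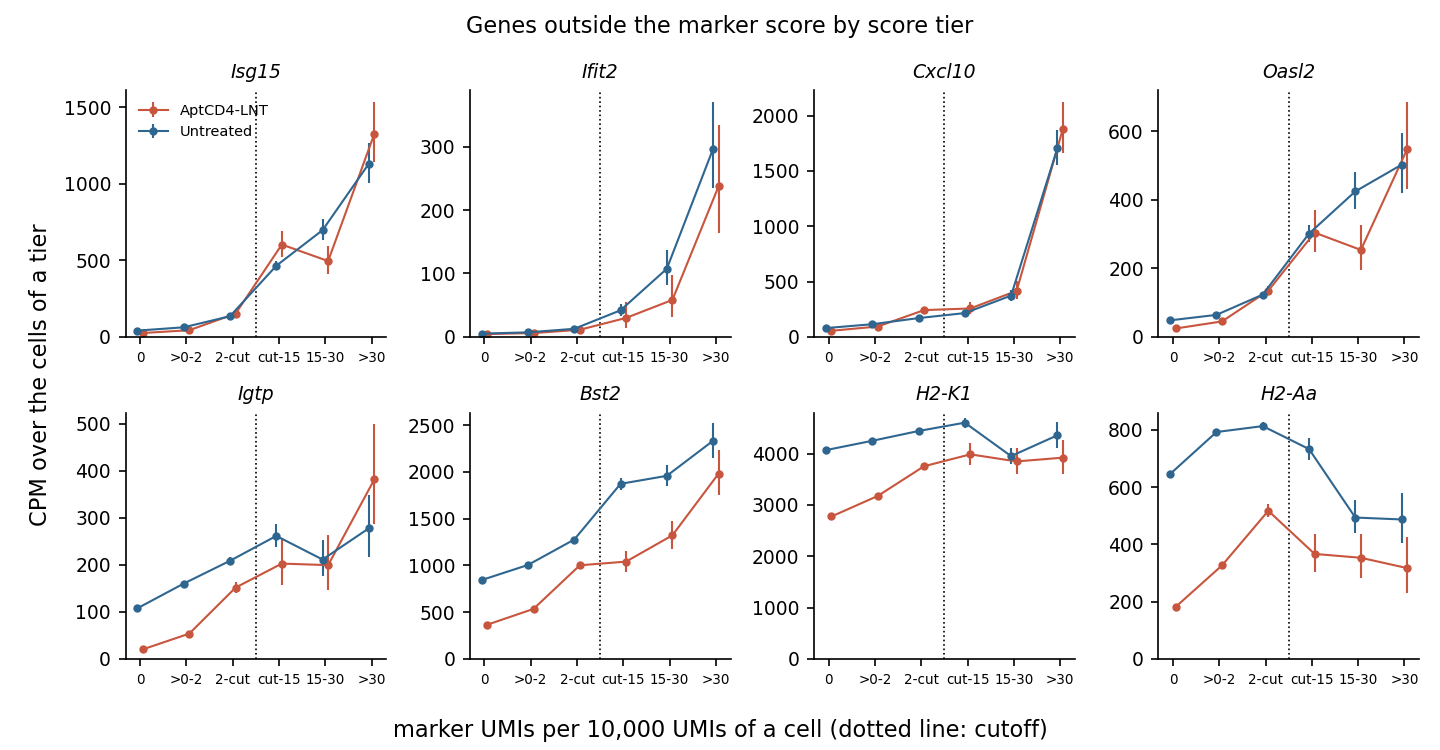
CPM of 8 genes that were not used in the choice (vertical, linear, from 0) by tier of the score in marker UMIs per 10000 (horizontal), for AptCD4-LNT (red) and Untreated (blue); bars are 95% Poisson intervals of the summed UMIs and the dotted line is the cutoff. Isg15, Ifit2 and Cxcl10 are highest above a score of 30, and H2-Aa peaks in the tier below the cutoff. H2-K1 lies between 3951 and 4603 CPM in Untreated. In AptCD4-LNT it increases from 2775 CPM at a score of 0 to 3986 in the tier just above the cutoff.

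The comparison of the libraries within the interferon-high cells is limited by the choice, because a common cutoff makes the scores alike by construction. Of the 8270 genes 167 (2.02%) were 2-fold higher and 153 (1.85%) 2-fold lower in AptCD4-LNT than in Untreated among interferon-high cells, and 35 (0.423%) and 70 (0.846%) among the other tumour cells. The interferon-high cells held 714801 UMIs in AptCD4-LNT and 2705471 in Untreated, and the other tumour cells 64425063 and 79214956. Counting error is thus far larger among the interferon-high cells, and the 2 sets of counts are not directly comparable. The type I antiviral list had a median log2 ratio of AptCD4-LNT to Untreated of 0.30 in the interferon-high cells, which turned to -0.16 when each library's own highest 3% was taken, and of -0.26 in the other tumour cells. The GTPases had a median of 0.04 in the interferon-high cells (-0.02 after scaling by the median ratio, and between -0.24 and 0.18 over all alternatives) and of -1.26 in the others. In those other cells 11 of the 12 GTPases and all 8 MHC class II genes were 2-fold lower in AptCD4-LNT, and in the interferon-high cells 1 of each list was, Gbp8 and H2-DMb2. MHC class II had medians of -0.74 and -1.45, and MHC class I of -0.11 and -0.49.

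**Figure D4:**
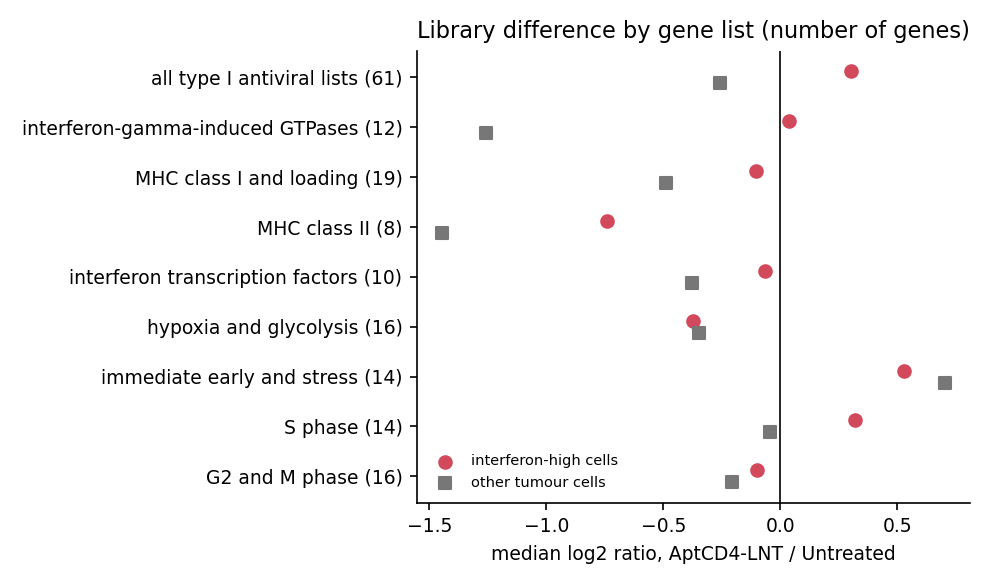
Median log2 ratio of AptCD4-LNT to Untreated over the measured genes of each list (number in brackets), in interferon-high cells (circles) and other tumour cells (squares); the vertical line is 0. The circles lie to the right of the squares for every interferon and MHC list shown, by the most for the GTPases (0.04 against -1.26). The interferon transcription factors are among these lists (-0.06 against -0.38). The medians have no error bars because each group is 1 library.

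Of the 8 genes named as highest and the 8 named as lowest in AptCD4-LNT relative to Untreated among interferon-high cells, all but Ccl5 had the same direction in the other tumour cells. Lgals7, a keratinocyte galectin, stood at 57.4 CPM in AptCD4-LNT and 6.65 in Untreated among interferon-high cells, and at 80.8 and 21.2 among the others. Mmp13, a collagenase, stood at 386 and 139, and at 154 and 119. Cxcl9 stood at 37.8 and 231, and at 25.2 and 127. Il1a, an alarmin cytokine, stood at 43.4 and 169 in the interferon-high cells and 66.9 and 101 in the others. The myeloid genes Lyz2, Ccl6 and Srgn were among those lowest in AptCD4-LNT, and Lyz2 stood at 8.39 and 115 CPM in interferon-high and 16.5 and 64.2 in other tumour cells.

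Markers of other cell types were measured beside these results. The 9 macrophage markers summed to 90.9 CPM in interferon-high and 82.7 in other tumour cells of AptCD4-LNT, with Adgre1 at 0 UMIs in the first, and to 321 and 218 CPM in Untreated, with none at 0. Leaving out tumour cells with 5 or more macrophage marker UMIs per 10000, an alternative added after the data were seen, removed 1 of the 40 and 18 of the 304 interferon-high cells. The shares were then 1.20% and 3.77%, the macrophage markers summed to 119 and 113 CPM in Untreated, and 33 of 61 type I antiviral genes were 2-fold higher in both libraries. The 7 neutrophil markers summed to 64.4 and 93.6 CPM in AptCD4-LNT and 165 and 155 in Untreated, and the 13 T and NK markers to 9.79 and 9.24, and 11.8 and 14.6. All 6 dendritic and 5 B cell markers were at 0 UMIs in the AptCD4-LNT interferon-high cells, and 5 of 6 and all 5 in the Untreated ones. Doublet candidates by Scrublet score were 0 of 40 (up to 7.5% allowed by 3 counts) and 40 of 304 (13.2%) interferon-high cells, against 8.05% and 15.4% of the other tumour cells.

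Interferon-high cells were found in most tumour cell clusters, at uneven shares. Clustering the tumour cells without the interferon, antigen presentation and chemokine genes of the lists gave 16 clusters. Of those with at least 50 cells, 11 of 12 in AptCD4-LNT and 12 of 13 in Untreated held interferon-high cells. The highest share in Untreated was 6.44% (79 of 1227 cells, interval 5.13 to 7.96%), in cluster 4. This cluster was led by Hmox1, Tnfrsf9, Espn, Adm and Ero1a, genes of oxidative and hypoxic stress among them. It held 26.0% of the library's interferon-high cells and 15.1% of its tumour cells. The same cluster held 2 of 216 cells (0.926%) in AptCD4-LNT. Cluster 5 of Untreated, led by Ibsp, held 20 of 1216 cells (1.64%, interval 1.01 to 2.53%). In AptCD4-LNT the highest share was 5.56% (5 of 90 cells, interval 1.83 to 12.5%), in cluster 6. This cluster was led by the replication genes Ung, Mcm4, Mcm3, Cdca7 and Chek1. Cluster 2, led by Ung, Chek1, Uhrf1, Clspn and Mcm3, held 0 of 167 AptCD4-LNT cells, which allows up to 1.80% by 3 counts. At resolution 0.5 the highest share in AptCD4-LNT was 2.95%. The largest cluster of AptCD4-LNT at resolution 1, cluster 9, led by Lgals7, Ctla2a, Bdnf, Klf4 and Lif, held 3 of 895 (0.335%, interval 0.0692 to 0.976%). Cluster 9 had 26.5% of the AptCD4-LNT tumour cells and 0.259% of the Untreated ones, so shares per library mix states that one library hardly has. Clusters 7 and 14, led by macrophage and neutrophil genes, are counted among the 13 clusters of Untreated. Of their Untreated cells 10 of 195 (5.13%) and 13 of 211 (6.16%) were interferon-high.

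**Figure D5:**
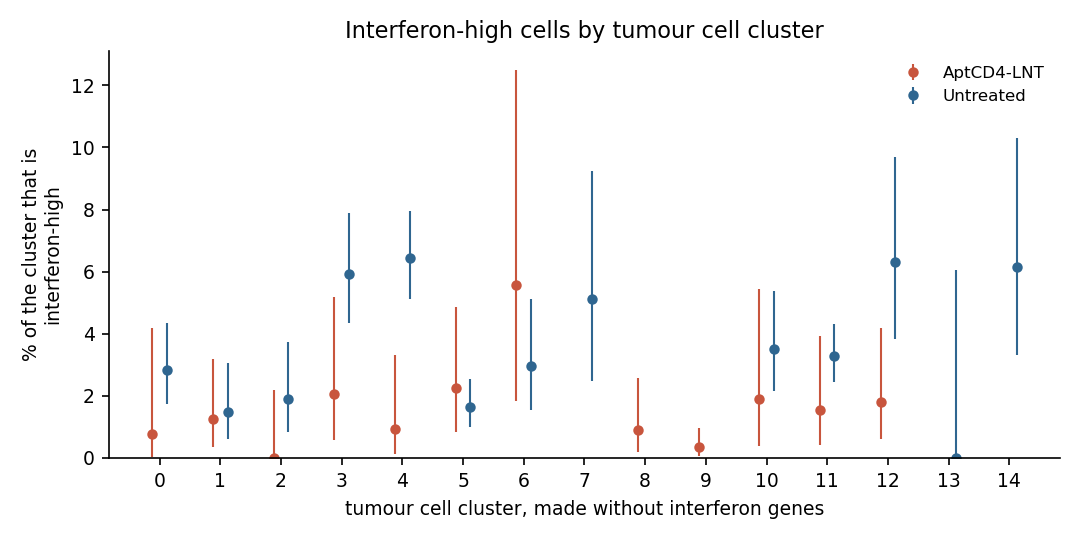
Percent of each tumour cell cluster that is interferon-high (vertical), by cluster number (horizontal; clusters made without interferon genes, points for clusters with at least 50 cells in a library), for AptCD4-LNT (red) and Untreated (blue), with exact 95% binomial intervals. The Untreated points run from 0 to 6.44% and the AptCD4-LNT points from 0 to 5.56%, with cluster 9 of AptCD4-LNT at 0.335%.

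The same level of the 7 genes was also reached outside the tumour cells. Among barcodes of at least 3000 UMIs without the keratin level of the tumour gate, assigned to the cell type with most marker UMIs (20 or more per 10000), 53 of 861 with macrophage markers (6.16%) in AptCD4-LNT and 118 of 1890 (6.24%) in Untreated were past the cutoff, at median depths of 6244 and 5136 UMIs. With neutrophil markers it was 19 of 116 (16.4%) and 21 of 147 (14.3%), at median depths of 3762 and 4062 UMIs. With fibroblast markers it was 9 of 803 (1.12%) and 10 of 514 (1.95%), at median depths of 12839 and 6965.5 UMIs. Fewer UMIs suffice to pass the cutoff at a lower depth, so these shares are not directly comparable between cell types. None of 41 and 127 barcodes with T and NK markers was past it, which allows up to 7.32% and 2.36% by the limit of 3 counts. With endothelial markers 0 of 43 AptCD4-LNT barcodes were past it, which allows up to 6.98% by that limit, and 9 of 96 Untreated ones (9.38%, interval 4.38 to 17.1%). Whether the libraries differ in 1 cell type more than in another was not tested.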

How the data were processed

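The deposited matrices hold counts, that is UMI counts per gene and barcode (55357 genes, at least 500 UMIs per barcode). Cell Ranger 7.2.0 and GRCm39 are named in the submitters' processing notes, and the filters before deposit are not given in the sources used here. The counts were used as the authors deposited them, with Python 3.11.15, numpy 2.4.6, scipy 1.17.1, pandas 2.3.3, scanpy 1.11.5, igraph 0.11.9 and matplotlib 3.10.9.

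UMIs were summed over the interferon-high and over the other tumour cells of each library and divided by the group total. Ratios carry exact conditional binomial intervals, and shares exact (Clopper-Pearson) ones. With 1 library per group no test was made. The members and the gene lists were chosen with earlier results of these data known. Any list gene could be named. Outside the lists, up to 12 genes per direction were named by the smaller of the 2 log2 ratios among genes 2-fold different in both libraries with intervals excluding 1, and up to 8 per direction by the ratio between libraries (30 UMIs and 50 CPM at least). Where a symbol had several IDs, the one with most UMIs was used. Overlapping and antisense genes could share reads.

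No doublets were removed in the values given. Scrublet, as run in scanpy, at its automatic threshold marked 203 cells (2.29%) of AptCD4-LNT and 0 of Untreated, which had not worked, so the highest scores were taken at a rate of 0.8% per 1000 barcodes (7.14% and 16.0%). Clusters came from 2000 variable genes, 30 principal components, 15 neighbours and Leiden resolution 1. The ratio calculation was tested on simulated counts. Alternatives covered the cutoff, the score, depth, doublets, weighting, scaling, the level filter and the clustering resolution.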

Additional observations from a re-analysis of the deposited data

Results flagged for a closer look

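Genes are given here whose interferon-high cells lay above the other tumour cells in one library and below them in the other, with counting intervals that exclude equality in both and a gap of at least 1.5-fold. The minimum gap was added after the values had been seen, when 19 genes met the criterion without it; among the 8 left out were Atf3, H2-Aa, Hspa5, Ifitm2, Krt7, Top2a and Wfdc2. With 1 library per group, the difference between the libraries was not tested for any of them.

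The MHC class II genes were higher in the interferon-high cells of AptCD4-LNT and lower in those of Untreated: the log2 ratio was 0.62 and -0.36 for H2-Ab1, 0.41 and -0.26 for H2-Eb1, and 0.43 and -0.22 for Cd74, the invariant chain. Il1a, Csf3 and Nfkbia went the other way. Il1a stood at -0.62 in AptCD4-LNT and 0.74 in Untreated, Csf3 (G-CSF) at -0.46 and 0.33, and Nfkbia, the NF-kB inhibitor, at -0.25 and 0.35.

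The stress gene Gadd45a stood at -0.77 in AptCD4-LNT and 0.18 in Untreated, and the transcription factor gene Klf4 at -0.27 and 0.32. The zinc transporter gene Slc39a10 stood at 0.63 and -0.43, the cyclin gene Ccnb2 at 0.42 and -0.24, and the integrin gene Itgb4 at 0.39 and -0.20. In AptCD4-LNT 26.5% of the tumour cells belonged to cluster 9, which Klf4 helps to lead and in which 0.335% were interferon-high; the part of this uneven spread in the differences was not tested.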

How the results depend on the processing

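Of 71 values recomputed under the alternatives, 592 of 692 comparisons stayed within the limits set for them, 98 moved and 2 reversed. With the highest 1% the shares were 0.503% in AptCD4-LNT and 1.20% in Untreated, and with the highest 5% 1.86% and 6.30%. The score from thinned cells, which with ties left out kept 216 cells, gave 2.19% in Untreated and a ratio of the shares of 1.95. Under the other alternatives the ratio reached at most 3.38. The 56 genes higher in both libraries became 33 at 30 CPM or more and 308 with no level filter. The 5 genes lower in both became 41 with the highest 1%, 0 with the highest 5%, 10 with the thinned score, 2 each with 5000 or more UMIs, with cells weighted equally and with Ifi44 left out of the score, 3 at 30 CPM and 32 with no level filter. The difference in Isg15 between AptCD4-LNT and Untreated interferon-high cells, 0.29 on the log2 scale, reversed to -0.0501 with the thinned score and to -0.55 with each library's own highest 3%; the cause was not tested.

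No paired analysis was possible because each group is 1 library. Taking each library's own highest 3%, leaving Ifi44 out, ranking the Scrublet scores, leaving out cells with macrophage UMIs and leaving out the top cell of a gene were chosen after the data were seen.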
